A study of Mus musculus with 12 samples.

Results

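The collagen genes are the family that encodes the chains of collagen, the triple-helical proteins of the extracellular matrix. Members were taken by name, as every row of both expression tables whose symbol is Col, a number, a and a number, which gave 44 of 52636 genes. Of the 44, 30 reached a mean of 1 TPM over the 12 libraries (a transcript level that allows for transcript length and gives every library the same total) and 14 did not. Among all genes, 18499 reached that mean. Col3a1 (1.24 TPM) and Col7a1 (1.43 TPM) lay just above the limit, and Col13a1 (0.783 TPM) and Col24a1 (0.716 TPM) just below it.

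RNA was sequenced from the hippocampus of 12 mice, all wild-type, of strain C57BL6/J and 18 weeks old. Extinction was high in 3 males and 3 females and low in the other 3 males and 3 females, which makes 4 groups. Extinction is the loss of a learned fear when the feared cue or place returns without harm, and the comparison asked which transcripts go with a mouse's level of it. Each library came from another mouse, named in the labels, and no agent or transgene separated the groups. How extinction was scored, and when tissue was taken after it, were not given in the sources used here. All changes are low against high extinction within a sex. Where a fold change is called the authors', it was read from the DESeq2 table that they deposited for that sex.

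Collagen chains fold in threes, and the chain combination sets the assembly. Types I, III, V and XI form fibrils, type IV forms the sheet of basement membranes, type VI forms beaded filaments, type VIII forms a short-chain network, and FACIT collagens (fibril-associated, with interrupted helices) sit on fibrils. In brain, fibrillar collagen is made mainly by fibroblasts of the meninges and of large vessels, while type IV lies around capillaries and some collagens, such as types XIX and XXV, are made by neurons. The family drew attention through Col3a1 and Col6a3, which are higher at low extinction in females, so that female difference of both genes is given as a description with no test, and so is any difference between the sexes in them.

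The bases upstream of the start site are shown for Col3a1 and Col6a3, the genes that drew attention, and for Col8a1 and Col8a2, chains of 1 assembly whose levels ran together over the mice. Each run is the 250 bases before the RefSeq start on GRCm38.p6, 5′ to 3′ on the gene's strand, and capitals mark letters of 3 promoter motifs, searched on either strand. The TATA box was searched as TATAAA. The motif named the CCAAT box was searched by those letters. As a GC box, which binds factors of the Sp family, the letters GGGCGG were taken. The windows are chr1:45311288-45311537 on the plus strand for Col3a1, chr1:90843972-90844221 on the minus strand for Col6a3, chr16:57754738-57754987 on the minus strand for Col8a1 and chr4:126286544-126286793 on the plus strand for Col8a2.
Col3a1: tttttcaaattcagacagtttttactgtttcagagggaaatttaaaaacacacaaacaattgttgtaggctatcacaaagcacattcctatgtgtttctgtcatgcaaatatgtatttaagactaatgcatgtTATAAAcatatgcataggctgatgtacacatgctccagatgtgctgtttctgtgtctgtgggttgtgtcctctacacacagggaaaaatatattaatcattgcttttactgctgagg
Col6a3: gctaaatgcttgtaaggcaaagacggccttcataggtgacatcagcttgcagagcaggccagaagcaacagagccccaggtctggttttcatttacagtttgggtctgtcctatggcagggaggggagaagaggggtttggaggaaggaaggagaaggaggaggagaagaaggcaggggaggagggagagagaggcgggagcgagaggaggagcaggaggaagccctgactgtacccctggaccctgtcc
Col8a1: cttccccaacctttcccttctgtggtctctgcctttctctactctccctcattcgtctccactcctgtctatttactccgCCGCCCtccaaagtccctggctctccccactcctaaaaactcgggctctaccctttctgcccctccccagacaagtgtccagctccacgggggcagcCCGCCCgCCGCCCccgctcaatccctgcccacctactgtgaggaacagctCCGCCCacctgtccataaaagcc
Col8a2: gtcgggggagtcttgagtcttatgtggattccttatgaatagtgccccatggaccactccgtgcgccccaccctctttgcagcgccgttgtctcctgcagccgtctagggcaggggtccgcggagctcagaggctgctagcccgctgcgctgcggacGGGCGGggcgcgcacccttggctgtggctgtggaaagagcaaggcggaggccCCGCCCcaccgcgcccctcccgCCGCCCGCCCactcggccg
Col3a1 held 1 TATA box, which began 117 bases before the start, with a GC content of 35.2% and 0 CG dinucleotides. Col6a3 held none of the 3 motifs at 57.2% GC. Col8a1 and Col8a2 each held 4 GC boxes, in Col8a1 beginning 170, 73, 66 and 23 bases and in Col8a2 93, 41, 19 and 15 bases before the start. The last pair in Col8a2 share bases. A RefSeq window was found for 35 of the 44 genes, with 38 windows in all. A GC box stood in 57.9% of the collagen windows and in 32.7% of all 32851 windows, a TATA box in 13.2% and 12.4%, and a CCAAT box in 34.2% and 33.8%. The median GC content was 59% in the collagen windows and 52.4% in all of them, and such matches are letters in a window, not measured binding sites.

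Library correlations of log2(TPM + 1) ran from 0.973 to 0.983, each library held 18170 to 19062 genes at 1 TPM or more, and reads per library are unknown. Of the 8 markers of hippocampal neurons that check the tissue label, none was at 0, and they summed to between 1016 and 1628 TPM. In females their sums did not overlap, with 1424 to 1500 TPM at high and 1113 to 1254 TPM at low extinction, and in males they did. The 44 collagen genes summed to 207.9 to 235.4 TPM in high-extinction males, 159.8 to 211.7 TPM in low-extinction males, 193.2 to 225.8 TPM in high-extinction females and 243.4 to 270.9 TPM in low-extinction females. The female groups did not overlap in this sum and the male groups did. In the same females the summed neuron markers stood in the reverse order to the collagens, but single markers were mixed. On log2(TPM + 1), 5 of the 8 were higher and 3 lower at low extinction in females, with Slc17a7 at -0.56. By the authors' values 2 were higher at low and 6 at high extinction. The part of these markers in the collagen differences was not tested. In bulk tissue, fewer cells of a type and less RNA per cell cannot be told apart.

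By level, type IV led the family. Col4a2 had a mean of 26.4 TPM and Col4a1 20.4 TPM over the 12 libraries, and they encode the common chains of capillary basement membrane. Between them came Col9a3 (21.5 TPM), a FACIT chain, and after them Col11a2 (18.6 TPM), Col6a1 (14.7 TPM), the neuronal transmembrane collagen Col25a1 (11.7 TPM), Col19a1 (10.5 TPM) and Col16a1 (10.4 TPM). Several genes described below were lower: Col1a2, the second chain of type I, had a mean of 6.91 TPM, Col1a1 3.42 TPM, Col9a2 4.19 TPM, Col6a3 2.60 TPM and Col3a1 1.24 TPM. Low levels carry more counting error, which TPM does not show.

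**Figure D1:**
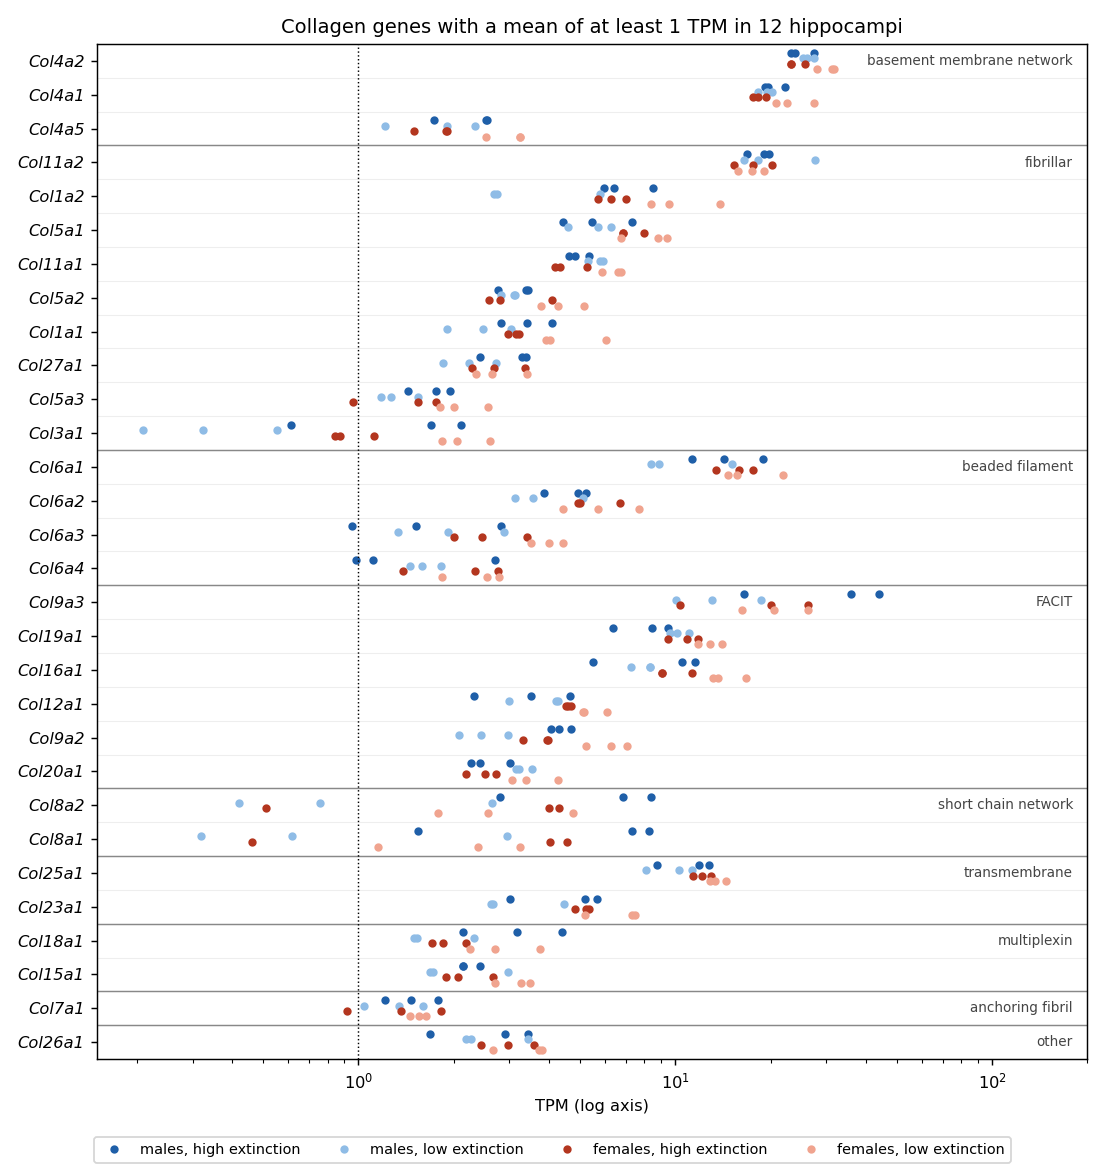
TPM on a log axis of the 30 collagen genes whose mean reached 1 TPM (dotted line), in each of the 12 mice, grouped by structural class and ordered by level within it. Points are mice, coloured by sex and extinction level. The spread over mice is narrow for Col4a1 and Col4a2 and wide for Col8a1, which ranges from 0.318 to 8.30 TPM.

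Across the family, most changes pointed down in males and up in females. On log2(TPM + 1), 22 of the 30 genes were lower at low extinction in males and 28 of 30 were higher at low extinction in females. Over all 18499 genes, 43.1% were higher at low extinction in males and 68.9% in females. The median change of the 30 genes was -0.14 in males, beside -0.02 over all genes, and 0.31 in females, beside 0.06 over all genes. Leaving out Col3a1 and Col6a3, whose female difference drew attention, 26 of 28 were higher at low extinction in females, with a median of 0.275. The authors' deposited tables, which scale libraries in another way, gave all 44 genes a fold change: 35 were higher at high extinction in males, and 36 higher at low extinction in females. Of the 30 genes at 1 TPM or more, 24 were higher at high extinction in males and 25 higher at low extinction in females in these tables. Of all genes at that level, 47.9% were higher at low extinction in males and 45.9% in females, so by the authors' scaling the female background leans the other way than by TPM. Without Col3a1 and Col6a3, 23 of 28 were higher at low extinction in females by the authors' values. These counts describe the family and test nothing, as the genes share cells and libraries.

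The authors' deposited tables called few of these genes at an adjusted p of 0.05. In males 3 of the 43 genes with an adjusted p passed, all higher at high extinction, where 0.389% of 20050 genes passed in that direction. In females 6 of 39 passed, all higher at low extinction, where 0.569% of 15644 genes passed in that direction. The female 6 include Col3a1 and Col6a3, for which the family was taken up, and without them 4 of 37 passed. At a DESeq2 adjusted p of 0.1, a limit added after the data were seen, 4 of 43 passed toward high extinction in males, beside 0.643% of all genes. In females 8 of 39 passed toward low extinction, beside 0.831%. The 8 again include Col3a1 and Col6a3, for which the family was taken up, so that count is a description only.

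The fit of limma to log2(TPM + 1), with Benjamini-Hochberg adjustment over all genes, called 0 of the 30 genes in each of 4 comparisons: males, females, the average over both, and the difference between the sexes. It called few genes of any kind (0.0%, 0.0108%, 0.0% and 0.00541% of all genes). At an unadjusted p of 0.05 the same 4 comparisons held 7, 13, 4 and 12 of the 30 genes, beside 6.32%, 8.78%, 7.7% and 7.92% of all genes. Without Col3a1 and Col6a3 they held 6, 11, 4 and 11 of 28. TPM keeps no record of depth, so the calls below rest on the authors' count model and the values per mouse on TPM.

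Among the fibrillar collagens, Col3a1 encodes the chain of type III, a collagen of vessel walls and meninges. It lies on chromosome 1 from 45311538 to 45349706 (GRCm38). Col3a1 was higher at high extinction in males and higher at low extinction in females. In males it stood at 2.11, 1.70 and 0.615 TPM at high and 0.554, 0.209 and 0.324 TPM at low extinction. In females it stood at 1.12, 0.874 and 0.843 TPM at high and 2.05, 1.83 and 2.61 TPM at low extinction. The groups did not overlap in either sex, although the lowest high-extinction male, replicate 3, was close to the highest low-extinction male, replicate 1. The authors' deposited table gave a 3.14-fold higher level at high extinction in males (log2 SE 0.39, DESeq2 adjusted p = 0.0123). In females it gave a 2.38-fold higher level at low extinction. On log2(TPM + 1) the male change was -0.81 and ran from -1.10 to -0.62 when each library was left out in turn. Summed markers of meningeal fibroblasts, given below, stood in the same order in both sexes, and their part was not tested.

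Type I collagen, the main fibril of connective tissue, is built from Col1a1 and Col1a2. Col1a2 stood at 8.49, 5.95 and 6.43 TPM at high and 5.79, 2.74 and 2.67 TPM at low extinction in males. In females it stood at 5.72, 6.98 and 6.26 TPM at high and 9.54, 8.41 and 13.9 TPM at low extinction. The groups did not overlap in either sex, with opposite order. The authors' deposited table gave a 1.51-fold higher level at low extinction in females (log2 SE 0.12, DESeq2 adjusted p = 0.000989), and in males a 1.92-fold value toward high extinction that did not pass (log2 SE 0.49, DESeq2 adjusted p = 0.679). Col1a1, named after its values were seen, had 4.08, 3.42 and 2.82 TPM at high and 3.03, 1.91 and 2.48 TPM at low extinction in males, which overlap, and 2.97, 3.15 and 3.22 TPM at high and 4.02, 3.90 and 6.05 TPM at low extinction in females, which do not. Its authors' values passed in neither sex (1.54-fold toward high extinction in males, DESeq2 adjusted p = 0.138, and 1.46-fold toward low extinction in females, adjusted p = 0.0732).

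Of the other fibrillar chains 1 was called. Col11a1, which encodes a chain of type XI collagen, stood at 4.16, 5.28 and 4.32 TPM at high and 5.86, 6.74 and 6.60 TPM at low extinction in females. The authors' deposited table gave it a 1.31-fold higher level at low extinction (log2 SE 0.11, DESeq2 adjusted p = 0.0383). In males its value pointed the same way, 1.17-fold, and did not pass (DESeq2 adjusted p = 0.499). Col11a2, the highest fibrillar gene, had authors' log2 changes of -0.06 in males and -0.04 in females, and its direction on log2(TPM + 1) turned when 1 library was left out. Col5a2, which lies 24614 bases from Col3a1 on chromosome 1 and on the other strand, had a 1.35-fold value toward low extinction in females (DESeq2 adjusted p = 0.129) and 1.06-fold toward high extinction in males (adjusted p = 0.999).

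**Figure D2:**
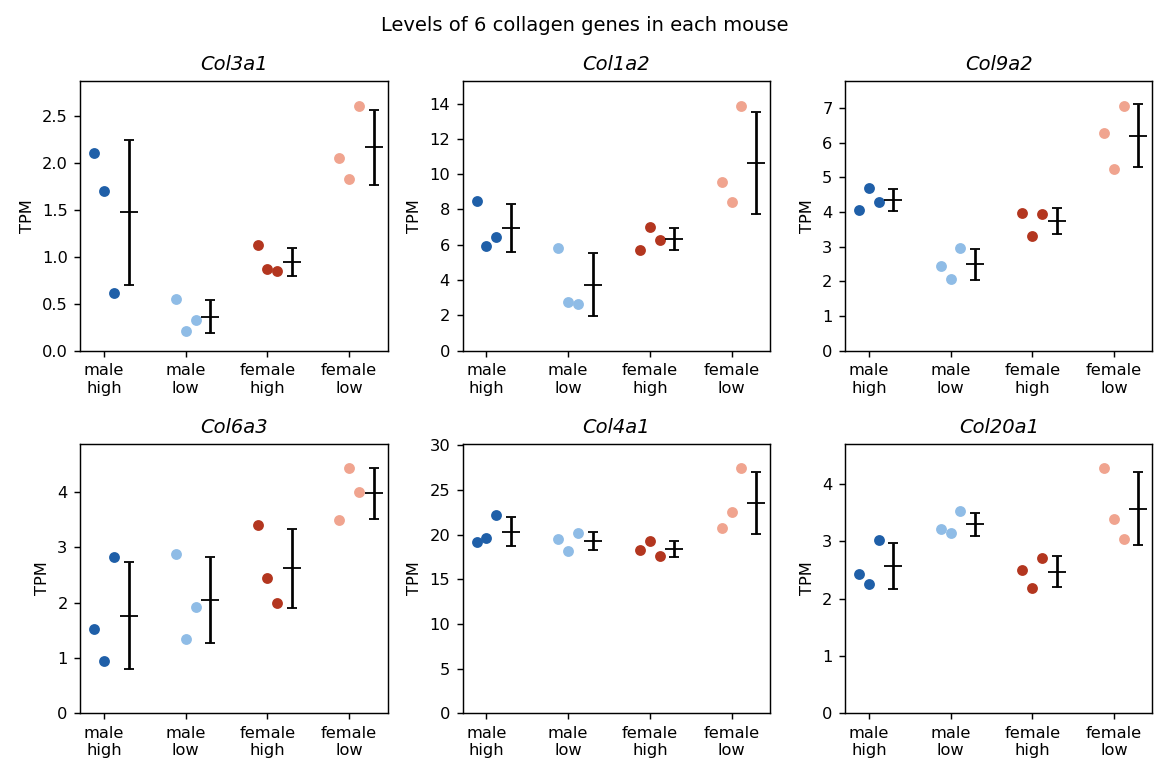
TPM of 6 collagen genes in each mouse (points), with the mean (long tick) and SD (error bars) of each group of 3, each panel on its own axis from 0. Col3a1, Col1a2 and Col9a2 are lower at low extinction in males and higher at low extinction in females with no overlap, while Col20a1 is higher at low extinction in both sexes.

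Of the basement membrane chains, Col4a1 stood at 18.3, 19.3 and 17.6 TPM at high and 20.7, 22.5 and 27.4 TPM at low extinction in females. The authors' deposited table gave it a 1.21-fold higher level at low extinction (log2 SE 0.08, DESeq2 adjusted p = 0.0409). Col4a2, which is read from the opposite strand and overlaps it by 22 bases on chromosome 8, had a 1.16-fold value in the same direction that did not pass (DESeq2 adjusted p = 0.0857). In males the authors' values were 1.01-fold toward high extinction for Col4a1 and 1.06-fold toward low extinction for Col4a2, and neither passed. Whether the authors' counting used the strand was not given in the sources used here, so reads over shared bases may be assigned to either gene.

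Col4a5, a chain of the type IV network of kidney and other specialised membranes, stood at 1.50, 1.91 and 1.89 TPM at high and 2.54, 3.24 and 3.24 TPM at low extinction in females. The authors' deposited table gave it a 1.51-fold higher level at low extinction (log2 SE 0.15, DESeq2 adjusted p = 0.0174). Its head-to-head neighbour on the X chromosome, Col4a6, 1308 bases away, had a 1.47-fold value in the same direction that did not pass (adjusted p = 0.302). Col4a3 was called in males, 3.21-fold higher at high extinction (log2 SE 0.43, DESeq2 adjusted p = 0.0305), yet its TPM overlapped: 0.952, 0.891 and 0.110 at high and 0.275, 0.138 and 0.174 at low extinction. Col4a4, 71 bases away on the other strand, had a 2.33-fold value toward high extinction that did not pass (adjusted p = 0.637).

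Type VI collagen, the beaded filament, joins chains from Col6a1, Col6a2 and Col6a3. Col6a3, on chromosome 1 from 90765923 to 90843971, stood at 3.41, 2.46 and 2.00 TPM at high and 3.50, 4.43 and 4.00 TPM at low extinction in females, with no overlap by a narrow margin. The authors' deposited table gave a 1.98-fold higher level at low extinction in females. In males it stood at 1.52, 0.953 and 2.83 TPM at high and 2.88, 1.34 and 1.92 TPM at low extinction, which overlap, with an authors' value of 1.06-fold toward high extinction (log2 SE 0.54, DESeq2 adjusted p = 0.999).

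The values of the partner chains did not pass. Col6a1 had 17.6, 15.9 and 13.4 TPM at high and 15.6, 14.7 and 21.8 TPM at low extinction in females, and an authors' value of 1.04-fold (log2 SE 0.12, DESeq2 adjusted p = 0.936). Col6a2 had 6.71, 4.94 and 5.01 TPM at high and 5.72, 4.42 and 7.70 TPM at low extinction in females, and also 1.04-fold (log2 SE 0.16, adjusted p = 0.957). The difference between Col6a3 and its partners was not tested. Col6a4, Col6a5 and Col6a6, a cluster on chromosome 9 that encodes alternatives to the Col6a3 chain, passed in neither sex.

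Of the FACIT collagens, type IX, known from cartilage and the vitreous of the eye, joins chains from Col9a1, Col9a2 and Col9a3. Col9a2 stood at 4.06, 4.68 and 4.29 TPM at high and 2.43, 2.08 and 2.98 TPM at low extinction in males. In females it stood at 3.97, 3.30 and 3.93 TPM at high and 6.28, 5.25 and 7.07 TPM at low extinction. The groups did not overlap in either sex, in opposite order. The authors' deposited table gave a 1.71-fold higher level at high extinction in males (log2 SE 0.20, DESeq2 adjusted p = 0.0377). In females it gave a 1.43-fold value toward low extinction that did not pass (log2 SE 0.17, adjusted p = 0.161). Col9a3 ran from 16.5 to 43.9 TPM in high-extinction males and from 10.1 to 18.7 TPM in low-extinction males, and passed in neither sex (adjusted p = 0.499 in males).

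Col19a1 and Col20a1 were the 2 genes of the 30 that were higher at low extinction with no overlap in both sexes, where 0.854% of all genes were. Col19a1, made by neurons and known for a part in the formation of inhibitory synapses, stood at 8.46, 9.52 and 6.38 TPM at high and 11.0, 9.64 and 10.1 TPM at low extinction in males. In females it stood at 10.9, 11.8 and 9.51 TPM at high and 12.9, 11.8 and 14.0 TPM at low extinction, with 1 mouse of each group near 11.8 TPM. Col20a1 stood at 2.43, 2.26 and 3.02 TPM at high and 3.22, 3.15 and 3.53 TPM at low extinction in males, and at 2.51, 2.18 and 2.72 TPM at high and 4.28, 3.38 and 3.05 TPM at low extinction in females. Neither passed: on average over the sexes the change on log2(TPM + 1) was 0.28 for Col19a1 (SE 0.09, limma adjusted p = 0.469) and 0.33 for Col20a1 (SE 0.09, limma adjusted p = 0.406), and the authors' values were 1.21-fold and 1.27-fold in males and 1.08-fold and 1.15-fold in females.

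Type VIII collagen, a short-chain lattice under endothelia, is made from Col8a1 and Col8a2, which lie on chromosomes 16 and 4. Col8a1 stood at 7.33, 8.30 and 1.55 TPM at high and 2.95, 0.318 and 0.620 TPM at low extinction in males, and at 0.461, 4.57 and 4.04 TPM at high and 2.39, 3.24 and 1.15 TPM at low extinction in females. Col8a2 stood at 6.83, 8.40 and 2.80 TPM at high and 2.64, 0.422 and 0.758 TPM at low extinction in males, and at 0.512, 4.29 and 4.00 TPM at high and 2.56, 4.75 and 1.78 TPM at low extinction in females. The mice that were high in one were high in the other, and in females replicate 1 of the high-extinction group stood far below its group. The authors' values in males were the largest folds among the 44 genes and had wide errors, 4.37-fold for Col8a1 (log2 SE 1.07, DESeq2 adjusted p = 0.641) and 4.59-fold for Col8a2 (log2 SE 0.86, adjusted p = 0.361), both toward high extinction, and neither passed. Choroid plexus markers were high in the same mice, as described below, and their part was not tested.

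Among the remaining classes, Col18a1, the vessel basement membrane collagen from which endostatin is cut, stood at 4.41, 3.17 and 2.14 TPM at high and 2.32, 1.50 and 1.54 TPM at low extinction in males, which overlap, and at 1.85, 2.19 and 1.71 TPM at high and 2.26, 2.70 and 3.74 TPM at low extinction in females, which do not. The authors' values were 1.75-fold toward high extinction in males (DESeq2 adjusted p = 0.0754) and 1.38-fold toward low extinction in females (adjusted p = 0.248). The other genes that reached 1 TPM, Col5a1, Col5a3, Col27a1, Col12a1, Col16a1, Col15a1, Col23a1, Col25a1, Col7a1 and Col26a1, passed in neither sex.

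The 14 genes below 1 TPM were Col13a1, Col24a1, Col2a1, Col4a6, Col22a1, Col14a1, Col4a4, Col4a3, Col9a1, Col6a5, Col17a1, Col6a6, Col28a1 and Col10a1, and each was read in at least 1 library. Of them Col4a3 was called, in males. Col22a1, a FACIT chain of tissue junctions, was higher at low extinction with no overlap in both sexes, with means of 0.504 TPM (high) and 0.713 TPM (low) in males and 0.486 and 0.704 TPM in females, and passed in neither (DESeq2 adjusted p = 0.676 and 0.581). Col13a1, Col2a1 and Col4a6 were higher at low extinction with no overlap in females only. Non-overlap over all genes was counted only for those at 1 TPM or more, so no share stands beside these.

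By non-overlap of the 3 low and 3 high libraries, 16 of the 30 genes were higher at low extinction in females, where 14.2% of all genes were. The 16 include Col3a1 and Col6a3, whose female difference prompted the choice of the family, and without them the count was 14 of 28. In females 0 were higher at high extinction, where 1.98% were. In males 4 were higher at high extinction (Col1a2, Col9a2, Col8a2 and Col3a1), where 7.32% of all genes were, and 2 were higher at low extinction (Col19a1 and Col20a1), where 4.19% were. Col3a1, Col1a2 and Col9a2 were higher at high extinction in males and at low extinction in females, both with no overlap, which held for 1.08% of all genes. For Col3a1 this is a description, as its female difference was known beforehand. The reverse order held for 0 of the 30 and for 0.0703% of all genes.

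Whether the change differed between the sexes was tested by the difference of the authors' log2 fold changes over its standard error, with adjustment over 15642 genes. This z test was added after the data were seen. Leaving out Col3a1 and Col6a3, 3 of 37 collagen genes passed, Col9a2, Col18a1 and Col1a1, all with the male change below the female change, where 0.377% of all genes passed in that direction and 0.409% in either. For Col9a2 the difference was -1.29 (SE 0.27, adjusted p = 0.00107 from the DESeq2 estimates), for Col1a1 -1.16 (SE 0.25, adjusted p = 0.0027) and for Col18a1 -1.27 (SE 0.29, adjusted p = 0.00633). For Col3a1, given as a description, it was -2.90 (SE 0.44). Col1a2 had -1.53 (SE 0.50, adjusted p = 0.224) and did not pass. The same difference by limma on log2(TPM + 1) passed for none of them. By limma it was -1.22 for Col9a2 (SE 0.18, limma adjusted p = 0.222) and -0.80 for Col1a1 (SE 0.24, limma adjusted p = 0.5005). For Col18a1 it was -0.99 (SE 0.29, limma adjusted p = 0.4991) and for Col1a2 -1.44 (SE 0.34, limma adjusted p = 0.408). The male change lay below the female change in 32 of the 37 genes (86.5%), beside 48.8% of the 15275 genes tested that reached 1 TPM. The 37 include collagen genes below 1 TPM, so these shares are over unlike sets.

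**Figure D3:**
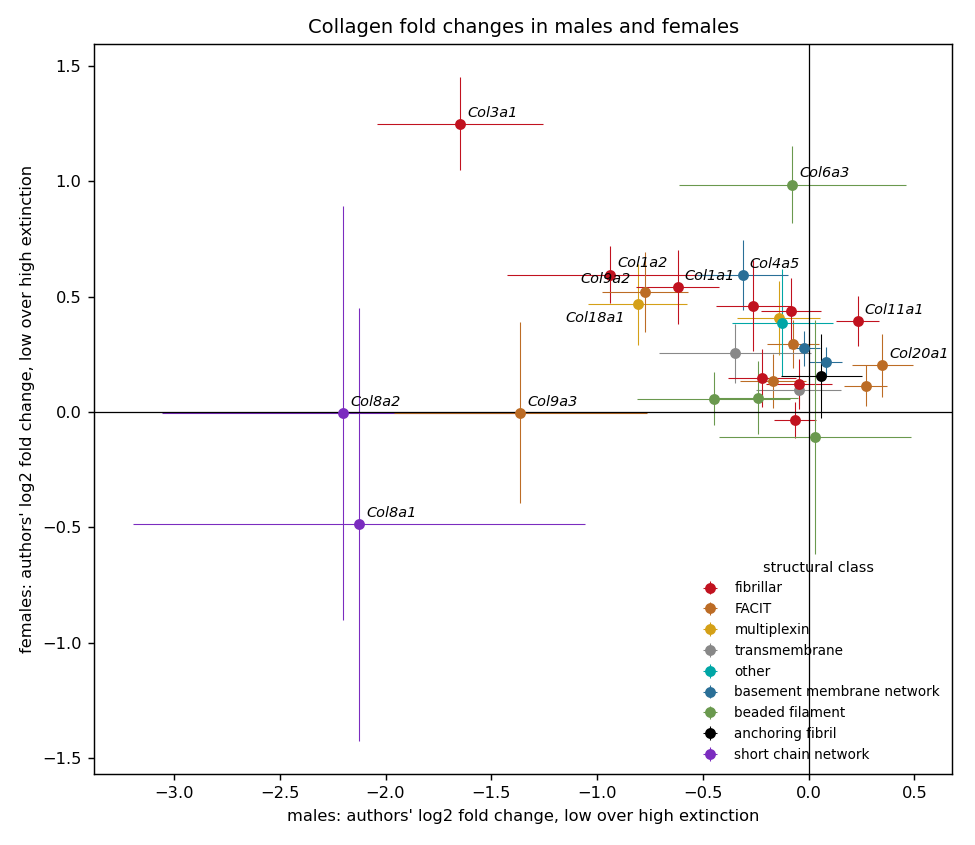
The authors' log2 fold changes, low over high extinction, in males (x axis) and females (y axis) for the 30 collagen genes whose mean reached 1 TPM, coloured by structural class, with error bars of 1 SE. Col3a1 lies at -1.65 in males and 1.25 in females, Col8a1 and Col8a2 lie far left with wide bars, and Col6a3 is near 0 in males and at 0.99 in females.

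Genes that make, bind and cut collagen were counted in the same tables, where 0.389% of all genes were called toward high and 0.115% toward low extinction in males, and 0.288% and 0.569% in females. Of 33 genes for collagen biosynthesis and crosslinking the authors' deposited table called 2 in males, Serpinh1, the collagen chaperone of the endoplasmic reticulum (1.65-fold, DESeq2 adjusted p = 0.000867), and P4ha1, which hydroxylates prolines of the helix (1.22-fold, adjusted p = 0.0297), both higher at high extinction, and 0 of 30 with an adjusted p in females, where 1 had an unadjusted limma p under 0.05. Serpinh1 ran from 13.7 to 17.3 TPM at high and from 9.41 to 10.6 TPM at low extinction in males, with no overlap. Of 12 collagen receptors, Itga11 was 1.57-fold higher at low extinction in males (adjusted p = 0.0487) and Ddr2, a receptor kinase for fibrillar collagen, 1.32-fold higher at low extinction in females (adjusted p = 0.0461). Of 13 collagen-degrading genes 0 were called in either sex by DESeq2, with 2 in males and 1 in females at an unadjusted limma p of 0.05.

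The same shares of all genes stand behind the counts of proteins that share the matrix with collagen. Of 13 basement membrane partners, Nid2 (1.99-fold, DESeq2 adjusted p = 0.0239) and Lama5 (1.43-fold, adjusted p = 0.0488) were higher at high extinction in males and 0 were called in females, where 3 had an unadjusted limma p under 0.05. Of 18 interstitial matrix partners, Thbs1 (2.44-fold, adjusted p = 0.0034) and Fbln1 (1.52-fold, adjusted p = 0.0314) were higher at high extinction in males, and Bgn, a small proteoglycan that binds type I fibrils, was 1.50-fold higher at low extinction in females (adjusted p = 0.000232). Bgn stood at 12.4, 12.3 and 11.6 TPM at high and 18.1, 16.4 and 23.7 TPM at low extinction in females.

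Summed markers of meningeal fibroblasts and smooth muscle stood in the order of Col3a1 in both sexes, while those of choroid plexus overlapped in both. The 15 meningeal fibroblast markers summed to 166.9 to 188.1 TPM at high and 91.7 to 154.0 TPM at low extinction in males, and to 149.0 to 157.7 TPM at high and 181.4 to 215.9 TPM at low extinction in females, with no overlap in either sex and no marker at 0. No collagen gene is in this list. The authors' deposited tables called 1 of them in males, Slc22a8, higher at high extinction, as were 0.389% of all genes, and 5 in females, higher at low extinction, as were 0.569% of all genes, among them Slc6a13 (2.03-fold) and Aldh1a2 (2.02-fold). The 7 smooth muscle markers summed to 42.7 to 64.2 TPM at low and 23.2 to 33.2 TPM at high extinction in females, with Acta2, Myh11 and Mylk called. In males they summed to 29.15 to 47.0 TPM at high and 23.9 to 28.9 TPM at low extinction, so they too did not overlap in either sex and stood in opposite order. The 7 pericyte markers summed to 137.6 to 156.8 TPM at high and 165.4 to 184.5 TPM at low extinction in females, with no overlap, and to 141.8 to 151.2 TPM and 135.3 to 144.0 TPM in males, with overlap. Single pericyte markers were mixed: by the authors' values 4 were higher at low and 3 at high extinction in females, and 5 and 2 in males. The 10 choroid plexus markers ranged from 338.0 to 3519 TPM at high and 58.7 to 983.3 TPM at low extinction in males, and from 25.2 to 1284 TPM at high and 107.5 to 1097 TPM at low extinction in females. In females the authors' values placed 10 of these 10 higher at high extinction, while on log2(TPM + 1) 7 were higher at low extinction. Of 6 ependymal markers 4 were called in males, higher at high extinction, as were 0.389% of all genes. Their sums did not overlap in males either, with 48.9 to 57.6 TPM at high and 17.2 to 34.2 TPM at low extinction. In females the ependymal sums overlapped, with 23.1 to 50.3 TPM at high and 35.3 to 61.0 TPM at low extinction, and 6 of 6 authors' values pointed to low extinction. The 8 endothelial markers summed to 124.5 to 146.7 TPM at high and 148.7 to 151.2 TPM at low extinction in females, with no overlap, and to 123.9 to 139.9 TPM and 121.1 to 129.4 TPM in males, with overlap. By the authors' values 5 of these 8 were higher at low and 3 at high extinction in females, and 2 and 6 in males. Of them 0 were called in either sex by the authors' DESeq2 fits, with 0 in males and 1 in females at an unadjusted limma p of 0.05. Their part in the collagen differences was not tested.

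Levels were then related over the 12 mice, after subtraction of each sex's mean, to the mean log2(TPM + 1) of the meningeal fibroblast, choroid plexus and endothelial markers, with 100000 permutations of mice within sex and adjustment over 90 relations. There 3 genes went with the choroid plexus markers. For Col8a1 Pearson's r was 0.991 (permutation p = 2e-05, adjusted p = 0.0012) and Spearman's rho 0.986 (permutation p = 2e-05). Without the pair of mice farthest from the median, r was 0.990, and it was 0.997 in males and 0.988 in females. Col8a2 (r = 0.972, rho = 0.965, adjusted permutation p = 0.0012, 0.956 without the pair) and Col9a3 (r = 0.961, rho = 0.958, adjusted permutation p = 0.0012, 0.937 without the pair) were alike. With each group's mean subtracted, r was 0.992 for Col8a1, 0.980 for Col8a2 and 0.959 for Col9a3, so these genes followed the markers among mice of 1 group as well. With the meningeal fibroblast markers their r was 0.864, 0.894 and 0.814 in males and -0.431, -0.222 and -0.132 in females.

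With the meningeal fibroblast markers, 6 of the 28 genes other than Col3a1 and Col6a3 passed by Pearson's r and 3 by both measures. They were led by Col1a2 (r = 0.958, rho = 0.930, adjusted permutation p = 0.0036), Col1a1 (r = 0.923, rho = 0.902, adjusted permutation p = 0.00248) and Col18a1 (r = 0.890, rho = 0.860, adjusted permutation p = 0.0106). Without the pair of mice farthest from the median, both low-extinction males, r was 0.942, 0.918 and 0.847. It was 0.979, 0.957 and 0.908 in males and 0.920, 0.933 and 0.851 in females, and 0.884, 0.842 and 0.739 with each group's mean subtracted. With the choroid plexus markers these 3 genes had r of 0.85, 0.923 and 0.944 in males and -0.0911, -0.195 and -0.152 in females. In males the meningeal fibroblast and choroid plexus markers gave similar r for these genes, and which cells carried them was not tested. For Col3a1, whose female difference chose it and enters this relation, r was 0.891 and 0.672 with each group's mean subtracted, given with no test. Col9a2 had r = 0.802 (rho = 0.804, adjusted permutation p = 0.0353), and 0.286 with each group's mean subtracted. With the endothelial markers, 0 of the 28 genes passed by either measure after adjustment, and 1 had an unadjusted permutation p under 0.05 for Pearson's r. For Spearman's rho the unadjusted permutation p was 0.0264 for Col12a1, 0.0381 for Col18a1, 0.0394 for Col4a5 and 0.0496 for Col9a2.

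**Figure D4:**
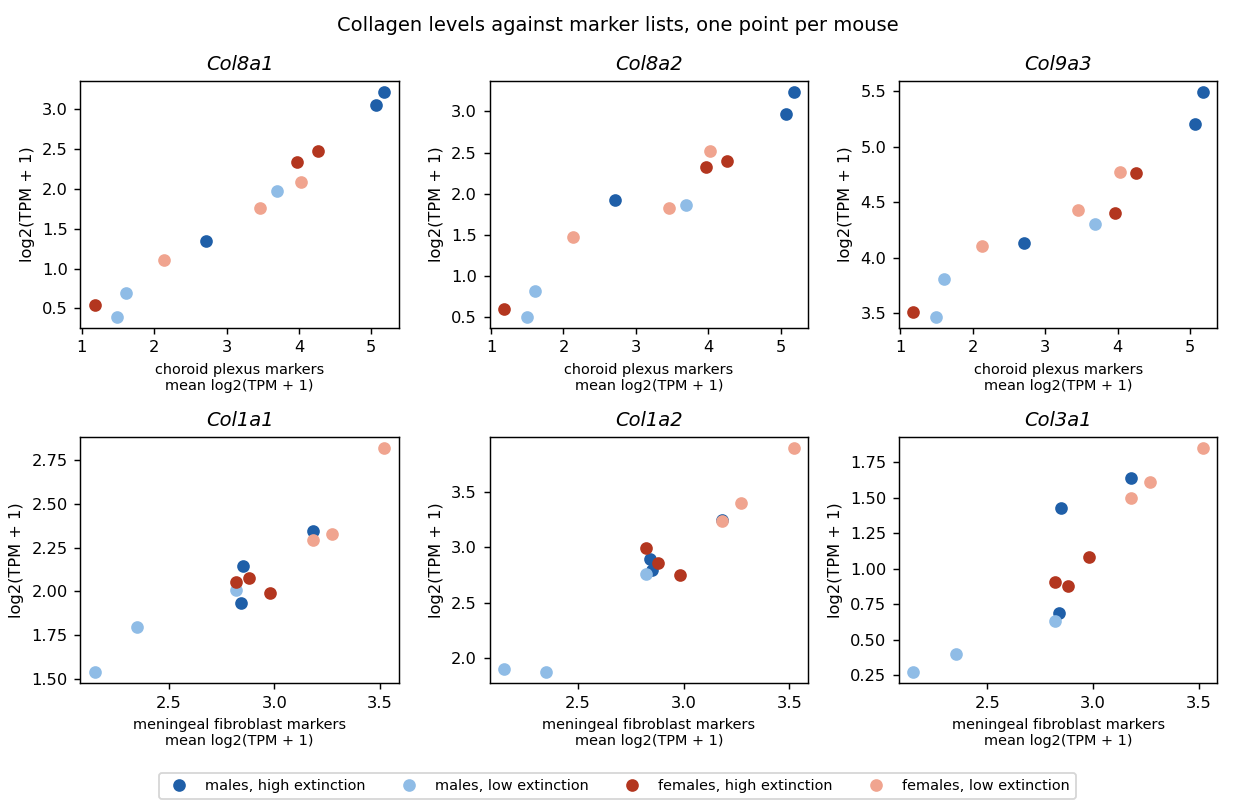
Collagen levels against marker levels in each of the 12 mice, as log2(TPM + 1), with the choroid plexus markers in the upper row and the meningeal fibroblast markers in the lower row, coloured by sex and extinction level. Col8a1 follows the choroid plexus markers (r = 0.991 after subtraction of each sex's mean) and Col1a2 the meningeal fibroblast markers (r = 0.958).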

How the data were processed

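Hippocampi of 12 mice were frozen, and poly(A)-enriched libraries were made, per the labels' protocols. Builds mm10 and GRCm38.p5 are listed in the submitters' processing notes, with no role for each tool there: DESeq2, StringTie 1.3.3b, HTSeq, Bowtie2 and TopHat2. Strand use was not stated. TPM tables, 1 per sex, were deposited by the authors and keep no depth. The authors' second table per sex holds, per the file headers, DESeq2 results: a p-value and an adjusted p-value, a log2 fold change with standard error, a statistic (a score) and a mean normalized count (a signal averaged over libraries). Which group the fold change is relative to is not named. Its correlation across genes with the TPM change was -0.585 in males and -0.451 in females, and 101 of 101 and 133 of 134 called genes had the opposite sign, so it was multiplied by -1 to read low against high extinction.

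The test was limma 3.58.1 (R 4.3.3, mean-variance trend) on log2(TPM + 1), a scale that understates changes of low genes, for genes whose mean reached 1 TPM, within each sex and over 12 libraries for the average and the difference between the sexes. Adjustment was by Benjamini-Hochberg at 0.05 over all genes tested. On simulated data with 50 genes changed per size among 18499, limma called, at a log2 change of 1, 74% for males, 82% for females, 84% for the average and 66% for the sex difference, and at 0.5 it called 12%, 18%, 56% and 2%. Since each sex has its own table, low and high extinction were compared within it. Library medians of log2(TPM + 1) differed between low and high extinction by -0.04 in males and 0.07 in females.

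The members, gene lists and tests were chosen with earlier results of these data known. Named genes were Col3a1 and Col6a3, the highest 2 of each structural class, those the authors called, the 3 largest changes per direction, neighbours on a chromosome, those near 1 TPM, and members of partner and marker lists called in a deposited table. All 44 collagen identifiers matched GENCODE M21, from which positions come. Promoter windows are from RefSeq. Correlations and figures used Python 3.11.15, scipy 1.17.1 and matplotlib 3.10.9. The settings varied were the pseudocount, the filter, the scaling, the trend, joint or separate fits, and each library left out in turn. The z test between the sexes and the limit of 0.1 were added after seeing the data.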

Additional observations from a re-analysis of the deposited data

Results flagged for a closer look

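For 3 genes the male and female groups did not overlap and stood in opposite order. On log2(TPM + 1), the male change less the female change was -1.51 for Col3a1, -1.44 for Col1a2 (limma adjusted p = 0.408) and -1.22 for Col9a2 (limma adjusted p = 0.222), so limma's test of the difference passed for neither Col1a2 nor Col9a2, and the value of Col3a1 is a description.

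For 3 genes the authors' log2 fold changes differed between the sexes by the z test. The male less the female change was -1.29 for Col9a2, -1.27 for Col18a1 and -1.16 for Col1a1. For Col3a1 it was -2.90, given with no test as its female change was known when the genes were chosen. The meningeal fibroblast and smooth muscle markers had summed levels in the same opposite order, with no overlap in either sex, and their part in these differences was not tested.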

How the results depend on the processing

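No paired analysis was possible because replicate numbers were given here in accession order and link no mouse of 1 group to a mouse of another. The count of 0 collagens called by limma held under 58 of 58 alternatives with a count. By the difference of the authors' fold changes, added after seeing the data, 4 lay under the limit between the sexes. The 4 include Col3a1, whose female change was known when it was chosen, so its value is a description and not a call. Without Col3a1 and Col6a3, 3 of 37 collagen genes passed. The median change of the collagens, Col3a1 and Col6a3 included, kept its direction throughout. It ran from -0.21 to -0.12 in males, 0.26 to 0.37 in females, 0.03 to 0.09 on average and -0.49 to -0.33 between the sexes when each library was left out. Of 1025 values of 25 named genes under an alternative, 986 kept their direction and 39 reversed, 33 of them when 1 library was left out, and the cause was not tested. With another pseudocount Col26a1 in males turned to 0.01 (0.1) and 0.004 (0.5). With libraries shifted to equal medians Col26a1 in males turned to 0.04, Col6a2 in females to -0.004, Col27a1 in females to -0.06 and Col6a4 between the sexes to 0.06. With 1 library left out, changes in males ran from -0.09 to 0.27 for Col11a2, -0.26 to 0.03 for Col15a1, -0.21 to 0.15 for Col26a1, -0.06 to 0.43 for Col6a3 and -0.10 to 0.35 for Col6a4. In females they ran from -0.11 to 0.08 for Col11a2, -0.10 to 0.12 for Col27a1, -0.04 to 0.23 for Col6a1, -0.11 to 0.23 for Col6a2, -0.07 to 0.25 for Col6a4, -0.02 to 0.26 for Col7a1, -0.76 to 0.21 for Col8a1, -0.42 to 0.48 for Col8a2 and -0.15 to 0.48 for Col9a3. Between the sexes they ran from -0.07 to 0.29 for Col11a2, -0.07 to 0.18 for Col19a1, -0.35 to 0.01 for Col26a1 and -0.21 to 0.24 for Col6a4. Depth per library is unknown, so what depth limits cannot be given. The authors' calls could not be refitted without a library, as counts per library were not analysed here.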
